A study of Mus musculus with 6 samples.

Results

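GATA transcription factors were followed through their probes on the mouse prostate arrays. The 6 genes of the family, Gata1 to Gata6, were taken by name from the array design, which holds 1 probe for each of them among 55681 probes. Of these 6 genes, 4 were well enough above background to be tested, Gata2, Gata3, Gata5 and Gata6, and Gata1 and Gata4 were not. Gata2 was the member that differed between the populations: LSC GFP+ cells had a 1.98-fold lower signal than LSC GFP- cells (limma, unadjusted p = 0.00514, adjusted p = 0.262 over all tested probes). No difference was called for Gata3, Gata5 or Gata6.

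All samples came from the prostates of untreated 6-day-old male FVB/N mice that carry the Tg 11.5kb-GFP transgene, in which an 11.5 kb piece of the s-SHIP promoter drives GFP. Dissociated cells negative for Ter119, CD31 and CD45, the lineage (Lin) markers of erythroid cells, endothelium and leukocytes, and positive for Sca-1 and CD49f make up the LSC fraction, which is enriched for basal and stem cells. This fraction was sorted by GFP into LSC GFP+ and LSC GFP- cells, and 3 independent samples of each were hybridised, so the LSC GFP- cells carry the same transgene and are the control. Per the study, the transgene also marks vascular smooth muscle cells, with a brighter GFP than in epithelium and little Sca-1 or CD49f on their surface. The samples are bulk RNA, so fewer cells that express a gene and less RNA per cell cannot be told apart.

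GATA proteins are transcription factors with a pair of zinc fingers that bind DNA at short sites built around the letters GATA, and they act with partners such as the FOG proteins Zfpm1 and Zfpm2 and the Tal1, Lmo2 and Ldb1 complex. Gata1, Gata2 and Gata3 are best known from blood, where they direct erythroid, stem and mast cell, and T cell programmes, while Gata4, Gata5 and Gata6 are known from heart, endoderm and gonad. In prostate epithelium, Gata2 is known as a pioneer factor that works beside Foxa1 at androgen-responsive genes, and Gata3 as a factor of epithelial progenitors in prostate and mammary gland.

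The probe that the design names Gata5 needs its sequence shown before any value is read. A stretch of 15 letters was searched for in both orientations: no 15-letter stretch of the Gata1, Gata2, Gata3 or Gata4 probe occurred in any of the 55680 other probes, and the Gata6 probe shared one with 1 other probe, that of Ets2. The Gata5 probe shared such a stretch with 13 probes named for 13 other genes, 3 in the same orientation and 10 in the opposite one. A single core, CTGGCTGTCCTGGAA, occurred in the Gata5 probe and in 7 of these probes. Written in the orientation of the Gata5 probe, with the core in capitals, the windows around it read:
Gata5: tgtagctCTGGCTGTCCTGGAActcatta
Timmdc1: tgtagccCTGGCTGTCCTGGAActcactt
AK140579: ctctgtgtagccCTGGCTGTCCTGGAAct
Dnajc5: tgtagtcCTGGCTGTCCTGGAActagttc
Elk1: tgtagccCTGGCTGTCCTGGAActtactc
F10: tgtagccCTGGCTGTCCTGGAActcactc
Kctd14: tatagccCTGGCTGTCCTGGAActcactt
Med16: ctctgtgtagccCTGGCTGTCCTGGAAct
The same core stood, on either strand, in 39 of 32851 mouse promoters (0.119%) of the RefSeq table for GRCm38.p6, and any 15-letter stretch of the Gata5 probe in 57 of them, against 0 to 5 for the other GATA probes. The Gata5 values below therefore belong to a probe whose letters are not particular to Gata5, and which transcripts it measured was not tested.

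Levels are given as log2 of the processed signal minus the 75th percentile of all probes on that array, so a level of 0 is the brightness of that percentile, and differences are LSC GFP+ minus LSC GFP-. To be tested, a probe had to be marked as well above background by the scanner software on every array of 1 population or of both. Probes differ in how brightly they report a given amount of RNA, so levels of different probes are not set against each other as amounts of transcript.

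The Gata2 probe lies at chr6:88156362-88156421 on the plus strand of mm9, the build of the array design (no gene model of mm9 was used here, so exon and UTR are not stated for any probe). Its level was 1.24, 1.79 and 1.99 in LSC GFP+ samples 1 to 3. In LSC GFP- samples 1 to 3 it was 2.38, 2.84 and 2.75. The populations did not overlap, and each LSC GFP+ sample was below the LSC GFP- sample of the same number, with differences of -1.14, -1.05 and -0.76 on the log2 scale.

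The mean Gata2 level was 1.67 ± 0.39 in LSC GFP+ and 2.66 ± 0.24 in LSC GFP- samples (SD, n = 3 each, log2). The difference of -0.99 (SE 0.26, 95% confidence interval -1.58 to -0.39) had an unadjusted p of 0.00514 and an adjusted p of 0.262 in limma, where 1 of 37008 tested probes (0.0027%) passed after adjustment. The exact two-sided permutation test gave p = 0.1 for Gata2, the smallest value that 3 samples against 3 allow. On the linear scale the Gata2 signal ran from 940 to 1718 in LSC GFP+ and from 2086 to 2920 in LSC GFP- samples. All 6 arrays were well above background for this probe, and no spot of any array was saturated.

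**Figure D1:**
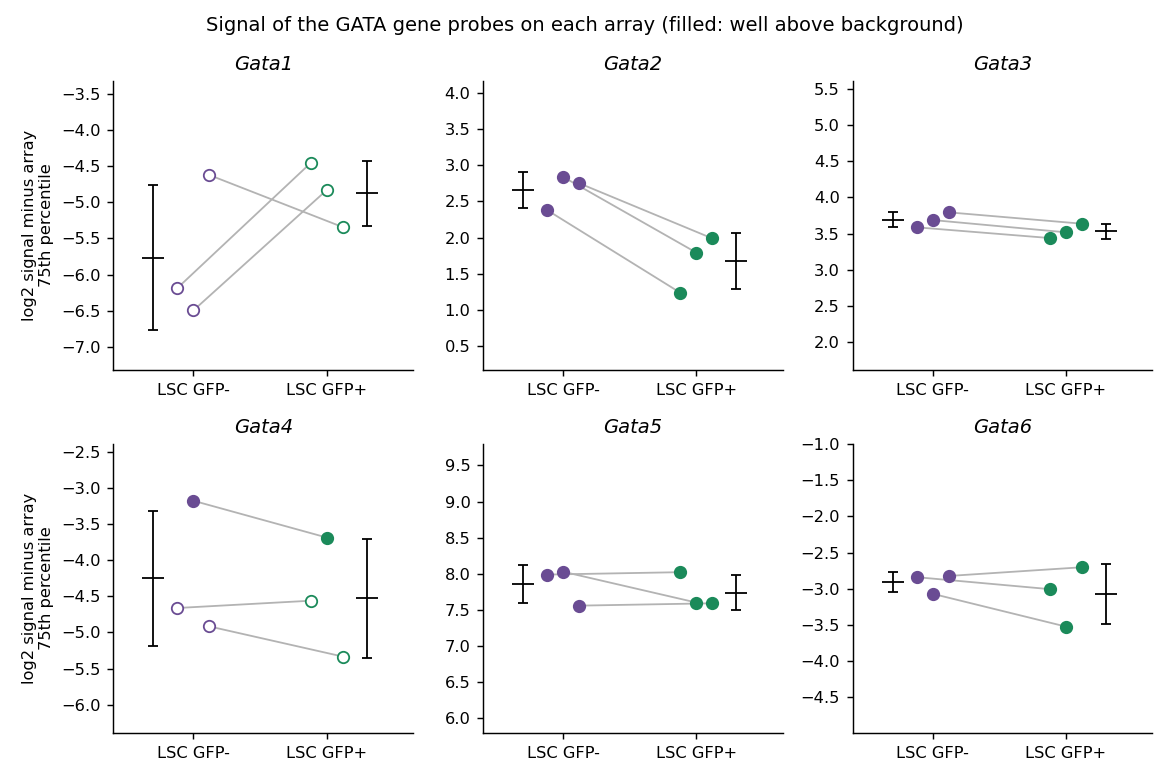
Level of each GATA probe (log2 signal minus the 75th percentile of the array, 4 units shown per panel) in LSC GFP- (purple) and LSC GFP+ (green) samples; filled circles are well above background, grey lines join samples of the same number, and bars are mean ± SD, n = 3. The LSC GFP+ samples lie below the LSC GFP- samples without overlap for Gata2, whereas the Gata1 circles are all open and Gata4 has 1 filled circle in each population.

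Among the 4 tested members, 1 passed an unadjusted p of 0.05, Gata2, and it was lower in LSC GFP+. Over all 37008 tested probes, 7.9% passed the same threshold, 3.38% higher and 4.53% lower in LSC GFP+, and 12.3% had populations that did not overlap, 5.66% lower and 6.61% higher in LSC GFP+. Each of the 4 tested members had a negative difference, with a median of -0.16, while the median over the 15855 named genes with a tested probe was 0.01. This shared sign does not show a fall of the family. Gata3, Gata5 and Gata6 were not called, with differences between -0.17 and -0.12. Gata6 turned to 0.06 with 1 LSC GFP+ sample left out, and the letters of the Gata5 probe are not particular to Gata5.

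**Figure D2:**
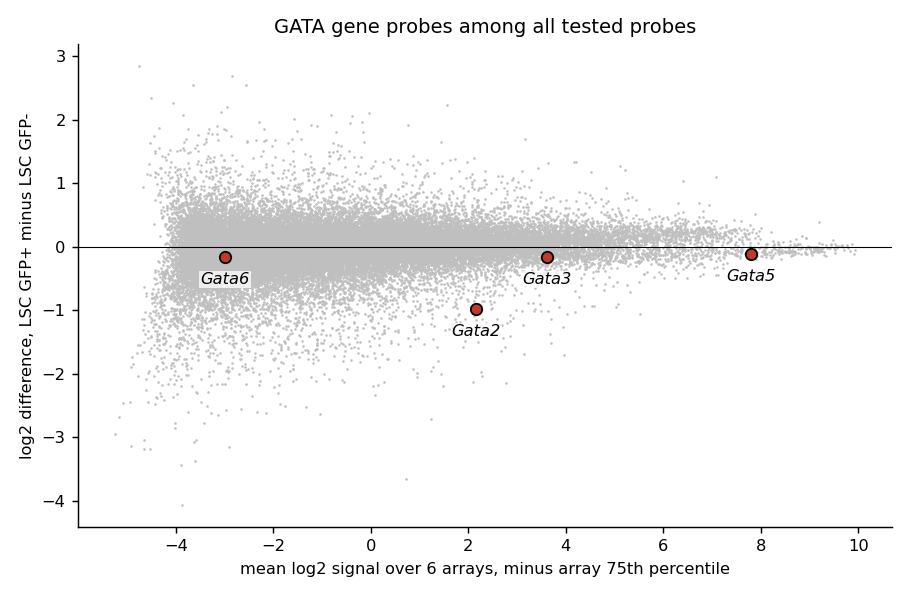
Difference between the populations (LSC GFP+ minus LSC GFP-, log2) against mean level over the 6 arrays (log2) for all 37008 tested probes (grey) and the 4 tested GATA probes (red). Gata2 lies at -0.99, below most probes of its brightness, and Gata3, Gata5 and Gata6 lie between -0.17 and -0.12.

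Gata3 was read by a probe at chr2:9779551-9779610 on the minus strand (mm9). Its level was 3.44, 3.52 and 3.64 in LSC GFP+ and 3.59, 3.69 and 3.79 in LSC GFP- samples 1 to 3. The ranges overlapped, although every LSC GFP+ sample was below the LSC GFP- sample of the same number by a like amount. These differences were -0.15, -0.17 and -0.16 on the log2 scale. The difference was -0.16 (SE 0.18, 95% confidence interval -0.58 to 0.27), with an adjusted p of 0.996 in limma and an unadjusted p of 0.414. The interval leaves out a fall of Gata3 as large as the fitted difference of Gata2.

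Gata2 and Gata3 were also compared inside each array, where the scaling of the array cancels. The log2 level of the Gata2 probe minus that of the Gata3 probe was -2.20, -1.72 and -1.65 in LSC GFP+ and -1.20, -0.85 and -1.04 in LSC GFP- samples. The populations did not overlap in this ratio, with a difference of -0.83 log2 units (mean -1.86 ± 0.30 against -1.03 ± 0.18, SD, n = 3 each; exact two-sided permutation p = 0.1, the smallest possible). Gata2 was taken for this ratio with its difference known, so the ratio describes the same samples and is not separate support.

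The Gata6 probe, on chromosome 18, was dim but well above background on all 6 arrays, with linear signals between 43.1 and 63.3. Its level was -3.01, -3.52 and -2.70 in LSC GFP+ and -2.84, -3.07 and -2.82 in LSC GFP- samples. The ranges overlapped. The difference was -0.17 (SE 0.25, 95% confidence interval -0.74 to 0.41), with an unadjusted p of 0.525 and an adjusted p of 0.996 in limma, and without LSC GFP+ sample 2 it turned to 0.06.

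The Gata5 probe, at chr2:180059867-180059926 on the minus strand (mm9), was brighter than 99.5% to 99.7% of all probes on every array, with linear signals between 79402 and 106509. Its level was 8.02, 7.60 and 7.59 in LSC GFP+ and 7.99, 8.03 and 7.56 in LSC GFP- samples. Samples 1 of both populations and LSC GFP- sample 2 were higher than the other samples, and the ranges overlapped. The difference was -0.12 (SE 0.23, 95% confidence interval -0.65 to 0.41), with an unadjusted p of 0.612 and an adjusted p of 0.996 in limma.

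The 7 probes that share the core with the Gata5 probe were bright as well. Each of them was brighter than at least 97.6% of all probes, with mean levels over the 6 arrays between 5.05 and 9.84. Their differences lay between -0.16 and -0.01, and over the 6 arrays their levels followed the Gata5 probe with Pearson r between 0.86 and 0.98, a description over arrays that share scaling and population. The probe of Ttc38, which shares other letters with the Gata5 probe, followed it most closely of all 14858 genes compared (r = 0.997), with a mean level of 8.01. Among the other letter-sharing probes, those of Siglech and 4930519A11Rik were at 4.88 and 5.46, while those of Etfbkmt, Fkbp5 and D130012P04Rik were at 0.90, 0.03 and -0.06.

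**Figure D3:**
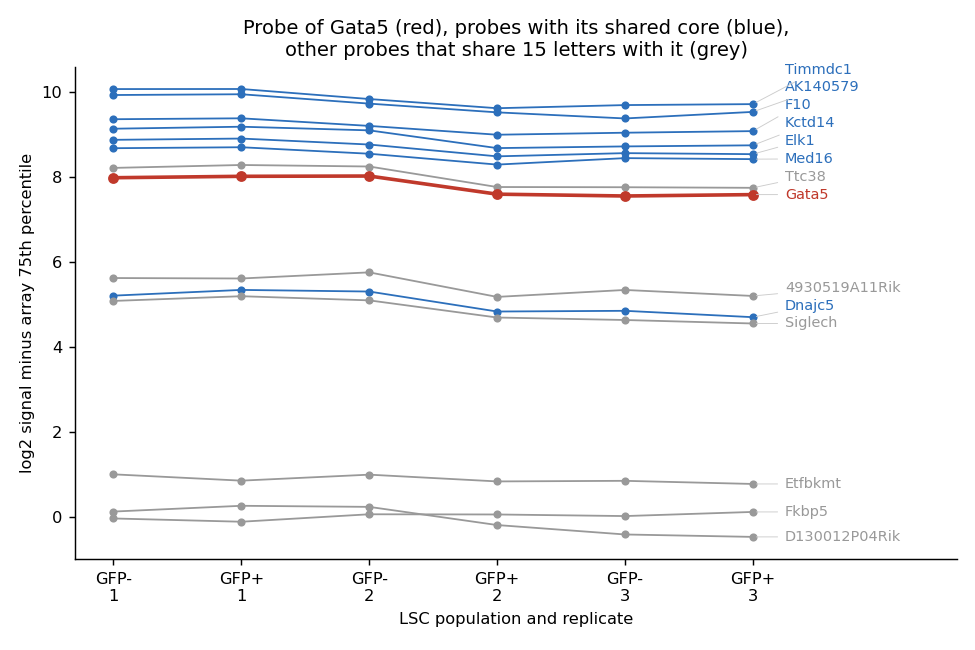
Level (log2 signal minus the 75th percentile of the array) of the Gata5 probe (red), of the 7 probes that hold the same 15-letter core (blue) and of 6 further probes that share another 15-letter stretch with it (grey), by population and sample number. The core-sharing probes have mean levels of 5.05 or more and move with the Gata5 probe from array to array.

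Gata1 and Gata4 gave no level that could be compared. The Gata1 probe, at chrX:7536392-7536451 on the minus strand (mm9), was not well above background on any of the 6 arrays, with linear signals from 4.52 to 18.2. The Gata4 probe, at chr14:63817858-63817917 on the minus strand (mm9), was well above background on 1 array of each population, LSC GFP+ sample 2 (signal 38.5) and LSC GFP- sample 2 (signal 45.0), and had signals from 10.2 to 16.9 on the others. These values bound the signal at the background of the arrays and say nothing of smaller amounts of transcript. Fitted without the background filter, neither gene passed in limma (unadjusted p = 0.131 for Gata1 and 0.651 for Gata4).

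Probes near the members on mm9 gave little more. Within 20 kb of the Gata5 probe and on the opposite strand, the probe of Gm14318, which the RefSeq names list under Gata5os, was well above background on 1 of 6 arrays and was not tested. An unnamed probe on the strand opposite to Gata3, at chr2:9784292-9784351, had mean levels of 2.08 in LSC GFP+ and 2.71 in LSC GFP- samples (difference -0.63, SE 0.32, limma unadjusted p = 0.0822, adjusted p = 0.737). Dnajb8, which encodes a chaperone, lies near Gata2 and differed by -0.15 (SE 0.25, adjusted p = 0.996). Neil2, a DNA repair glycosylase gene near Gata4, was lower by -0.82 (SE 0.36, limma unadjusted p = 0.0497, adjusted p = 0.631).

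Promoters of Gata1, Gata2, Gata3 and Gata5 were found in the RefSeq table, as 250 bases before to 50 bases after the start (GRCm38.p6), with 2 entries for Gata2. Gata4 and Gata6 had no entry. Because several GATA genes are known to be bound by GATA proteins, the forms of the GATA site were searched for on both strands. These were AGATAA, which 11.2% of all promoters hold, AGATAG, which 8.95% hold, TGATAA, which 9.05% hold, and TGATAG, which 7.29% hold, and on one strand no more than 1 of these forms can match at a position. At least 1 of the 4 forms stood in 29.8% of all 32851 promoters and in the promoter of Gata3 alone among these genes. The Gata3 match is TGATAG, and it begins 36 bases downstream of the start at chr2:9878551-9878576 on the minus strand.
Gata3: ctggcgccgtctTGATAGtttcagaa
The capitals mark the match. A match in these letters is a description of the sequence, and the windows of the other genes were searched over these bases only. The promoters of these genes were rich in G and C, with 57.3% for Gata1, 67.3% for Gata3, 69.7% for Gata5 and 69.3% and 73.7% for the entries of Gata2.

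Genes whose levels ran most like a member over the 6 arrays were taken from 14858 named genes. Nearest to Gata2 were Nhlrc4 (r = 0.994), Clca3a1 (r = 0.994) and Unc5b (r = 0.993), a netrin receptor gene, and these genes were lower in LSC GFP+, with log2 differences of -1.44, -0.83 and -1.09 (limma unadjusted p = 0.00170, 0.00969 and 0.00489). Since these genes were picked for likeness to Gata2 over the same arrays, their direction and p values follow from that choice and are not separate support. Gata3 was followed by Spin2c (r = 0.997), Gm14326 (r = 0.997) and Plac8 (r = 0.993). Gata6 ran closest to Plgrkt (r = 0.984), Dnase1l2 (r = 0.977) and Fam71e1 (r = 0.976). After Ttc38, Gata5 ran with Chrd (r = 0.996), which encodes the BMP antagonist chordin, and Arhgap33 (r = 0.996). With 6 arrays such values are common, since 344 genes exceeded r = 0.9 with Gata2, 522 with Gata3, 903 with Gata5 and 58 with Gata6.

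The partners of GATA proteins were called in neither direction. Of 13 cofactors and other proteins with a GATA-type zinc finger, 11 were tested and 0 passed an unadjusted p of 0.05, where 9.34% of the 15855 named genes did (limma). The median difference of these 11 genes was 0.10. Trps1, a repressor that binds GATA sites, was at 3.62 ± 0.07 in LSC GFP+ and 3.28 ± 0.11 in LSC GFP- samples, and Ldb1, the bridging subunit of GATA complexes, at 3.61 ± 0.13 and 3.31 ± 0.11 (SD, n = 3 each). Both had populations that did not overlap, as did 14.7% of the named genes (6.07% lower and 8.64% higher in LSC GFP+), with differences of 0.35 (SE 0.18, unadjusted p = 0.0940) and 0.30 (SE 0.19, unadjusted p = 0.150). Zfpm1, the FOG cofactor of Gata1 and Gata2, differed by -0.22 (SE 0.21), and the other FOG gene, Zfpm2, was at background on all 6 arrays. Fitted with the sample number as a block, 2 of the 11 passed, Gatad2a (0.33, unadjusted p = 0.0498, adjusted p = 0.337) and Lmo2 (-0.47, unadjusted p = 0.0371, adjusted p = 0.302). The Tal1 probe, which was not called, shares 15-letter stretches with 36 probes of other genes.

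Prostate and androgen-axis genes linked to Gata2 moved in both directions. Of 5 genes, all tested, 2 were higher and 1 was lower in LSC GFP+, where 4.55% and 4.79% of the named genes were, and the median difference was 0.01. Hoxb13, a homeobox gene of the posterior prostate, was 1.74-fold higher (1.07 ± 0.24 against 0.27 ± 0.28, SD, n = 3 each, log2; difference 0.80, SE 0.23, limma adjusted p = 0.328). Foxa1, a pioneer factor gene of prostate epithelium, was 1.49-fold higher (0.58, SE 0.21, adjusted p = 0.482). Tmprss2, an androgen-responsive protease gene, was 1.46-fold lower (-0.54, SE 0.22, adjusted p = 0.581). The populations did not overlap for any of these 3 genes, as for 14.7% of the named genes (8.64% higher and 6.07% lower in LSC GFP+). Pbsn, an androgen-driven gene of the mature prostate, had a difference of -0.24 (SE 0.32, unadjusted p = 0.471). The count fell to 1, Hoxb13, without LSC GFP+ sample 2, LSC GFP- sample 1 or LSC GFP- sample 2, and to 2, without Tmprss2, when LSC GFP+ sample 1 or LSC GFP- sample 3 was left out. Fkbp5 (0.01) was read by a probe that shares letters with that of Gata5 and with 34 probes in all.

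Epithelial genes linked to Gata3 from mammary gland and kidney gave 3 lower and 0 higher of 7 tested, where 4.79% of the named genes were lower and 4.55% higher, with a median difference of -0.14. With probes required to be above background on all 6 arrays, 2 were lower, Elf5 and Muc1, since Ret entered the test through the LSC GFP- arrays alone. Elf5, a factor of mammary luminal progenitors, was at -1.01, -0.25 and 0.78 in LSC GFP+ and 0.62, 1.27 and 1.60 in LSC GFP- samples, so that the ranges overlapped. Its difference was -1.32 (SE 0.46, limma unadjusted p = 0.0207, adjusted p = 0.457), and it was not called without LSC GFP+ sample 1 or 2 or LSC GFP- sample 2 or 3. Muc1, an epithelial mucin gene, was 1.54-fold lower (-0.62, SE 0.19, adjusted p = 0.354). Ret, the receptor gene through which Gata3 acts in the nephric duct, was not well above background on any LSC GFP+ array. It was on all 3 LSC GFP- arrays (limma adjusted p = 0.350, from values at background in LSC GFP+). With LSC GFP+ values raised to at least the dimmest well-above-background signal of their array, Ret was 2.0-fold lower. That value is not a limit for this probe. Esr1, Pgr, Tbx3 and Xbp1 had differences between -0.14 and 0.26 and were not called. Gata3 itself, as above, was not called.

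Blood and mast cell genes linked to Gata1 and Gata2 were mostly dim. Of 13 genes, 7 were tested, 1 was lower and 0 were higher in LSC GFP+, where 4.79% and 4.55% of the named genes were, with a median difference of -0.18. Kit, the stem cell factor receptor gene, was 1.70-fold lower (-0.76, SE 0.28, unadjusted p = 0.0263, adjusted p = 0.495, limma). Its populations did not overlap, as for 14.7% of the named genes (6.07% lower in LSC GFP+). Kit was not called when LSC GFP+ sample 1, LSC GFP- sample 1 or 2, or both samples of number 1 were left out, nor with the arrays scaled by their medians. Pf4 and Fcer1a, defining genes of platelets and mast cells, were at background on every array, and the mast cell protease gene Cpa3 was well above background on 1 array of 6. Hdc, the histamine enzyme gene, was well above background on no LSC GFP+ array and on 2 of 3 LSC GFP- arrays, and was not tested.

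Heart, endoderm and gonad genes linked to Gata4, Gata5 and Gata6 held the largest differences among the lists linked to GATA factors. Of 17 genes, 12 were tested, 1 was higher and 2 were lower in LSC GFP+, where 4.55% and 4.79% of the named genes were, with a median difference of -0.03. Foxa2, an endoderm pioneer factor gene, was 4.70-fold higher (2.68 ± 0.20 against 0.44 ± 0.39, SD, n = 3 each, log2; difference 2.23, SE 0.25, adjusted p = 0.0655). A second, dimmer Foxa2 probe, well above background on 3 LSC GFP+ and 2 LSC GFP- arrays, differed by 2.69 (SE 0.18, adjusted p = 0.0211) and was the 1 probe of the arrays that passed after adjustment. From these same arrays, the study reports Foxa2 as raised in LSC GFP+ cells and names it among regulators of early prostate development. Actc1, cardiac actin, was at -1.96 ± 0.30 in LSC GFP- samples and exceeded background clearly on 1 LSC GFP+ array of 3, so it entered the test through LSC GFP- and its fitted difference of -2.62 (adjusted p = 0.0782) rests in part on values at background. It was not among the genes tested, and 2 genes were called, Foxa2 and Wt1, with probes required to be above background on all 6 arrays. Wt1, a factor of gonad and kidney, was 3.62-fold lower (-1.85, SE 0.27, adjusted p = 0.0953). Nppa, Nppb and Myh6, heart genes that GATA factors are known to bind, had differences of 0.08, 0.02 and 0.00. Nr5a1, Amh and Star from the gonad had differences of -0.04, 0.12 and -0.72, and Mef2c and Bmp4 of -0.40 and -0.50, and none of these was called. With the sample number as a block, Bmp4 passed an unadjusted threshold of 0.05 (limma, unadjusted p = 0.0153, adjusted p = 0.216). Nkx2-5, Tbx5, Hand2, Hnf4a and Sox17 did not reach the background criterion.

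Smooth muscle, Wolffian and most stromal markers were lower in LSC GFP+ as Gata2 was. Over the named genes, 4.55% were higher and 4.79% lower. Basal markers Krt5, Krt14 and Krt15 were higher in LSC GFP+ (3 of 5, median 0.52), and luminal markers (Krt8, Krt18, Krt19, Cd24a, Epcam) were called in 0 of 5 (median -0.22). The brightest Trp63 probe (difference 0.11), which shares 15-letter stretches with 12 probes of other genes, was not called. A second Trp63 probe was higher by 0.62 (limma unadjusted p = 0.0124, adjusted p = 0.374), and a dimmer one differed by -0.73 and was not called. All 5 smooth muscle markers were lower in LSC GFP+ (median -1.68), and the summed signal of these markers, each relative to the 75th percentile of its array, was 5.93 to 9.54 in LSC GFP+ and 18.5 to 35.7 in LSC GFP- samples. Of 7 stromal markers, 5 were lower and Dcn was higher (median -1.21, sums 15.1 to 20.8 and 12.4 to 32.7). The LSC GFP+ sums were carried by Dcn, with a mean level of 3.70 against 1.27 for Col3a1, the next brightest. These sums therefore do not show equal stromal signal. Twist1, counted among the 5, entered the test through the LSC GFP- arrays alone. With LSC GFP+ values raised to the dimmest well-above-background signal of their array, it was 1.41-fold lower, which is not a limit for this probe. Of 4 Wolffian and nephric duct markers, Pax2, Pax8 and Emx2 were 2.14-fold, 3.05-fold and 3.05-fold lower and Lhx1 was not called (sums 3.56 to 4.88 and 5.23 to 9.22).

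The markers that the lineage gate targets gave no call. Of the 5 endothelial markers, Cdh5 and Emcn did not reach the background criterion and the other 3 were not called. Their sums (5.59 to 6.51 in LSC GFP+ and 5.82 to 6.64 in LSC GFP- samples) were carried by 1 Kdr probe, with mean levels of 2.52 and 2.50. LSC GFP- sample 3 was the highest array for Cdh5 (-2.24, against a mean of -6.29 in LSC GFP+), Pecam1 (-1.07 against -3.12) and Emcn (-3.18 against -4.91). It was also highest for a second, untested Kdr probe (-2.51 against -6.24), but not for Tek, so the sums do not show equal endothelial signal. Leukocyte markers were called in 0 of 5 (sums 238 to 317 and 250 to 296), a sum carried by the Itgam probe, which shares 15-letter stretches with 134 probes of other genes. Neuronal and glial markers were called in 0 of 7, of which 5 were tested, with sums of 2.85 to 11 in LSC GFP+ and 4.58 to 33.2 in LSC GFP- samples, sample 1 being highest in both. With the sample number as a block, Tubb3 and Sox10 among them passed (differences -1.30 and -0.66, adjusted p = 0.0848 and 0.262). With both samples of number 1 left out, Gata2 differed by -0.91 (limma unadjusted p = 0.0113, adjusted p = 0.459). Gata2, all 5 smooth muscle markers and 3 of 4 Wolffian markers had populations that did not overlap, as did 14.7% of the named genes (6.07% lower). Among the LSC GFP- samples, Gata2 was lowest in sample 1 and highest in sample 2, where the summed smooth muscle signal was highest (35.7) and lowest (18.5). The stromal sums were likewise highest in sample 1 (32.7) and lowest in sample 2 (12.4). The Wolffian sums were 5.23, 7.79 and 9.22 in LSC GFP- samples 1 to 3, lowest in sample 1 as Gata2 was. The part of these cell types in the Gata2 difference was not tested.

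**Figure D4:**
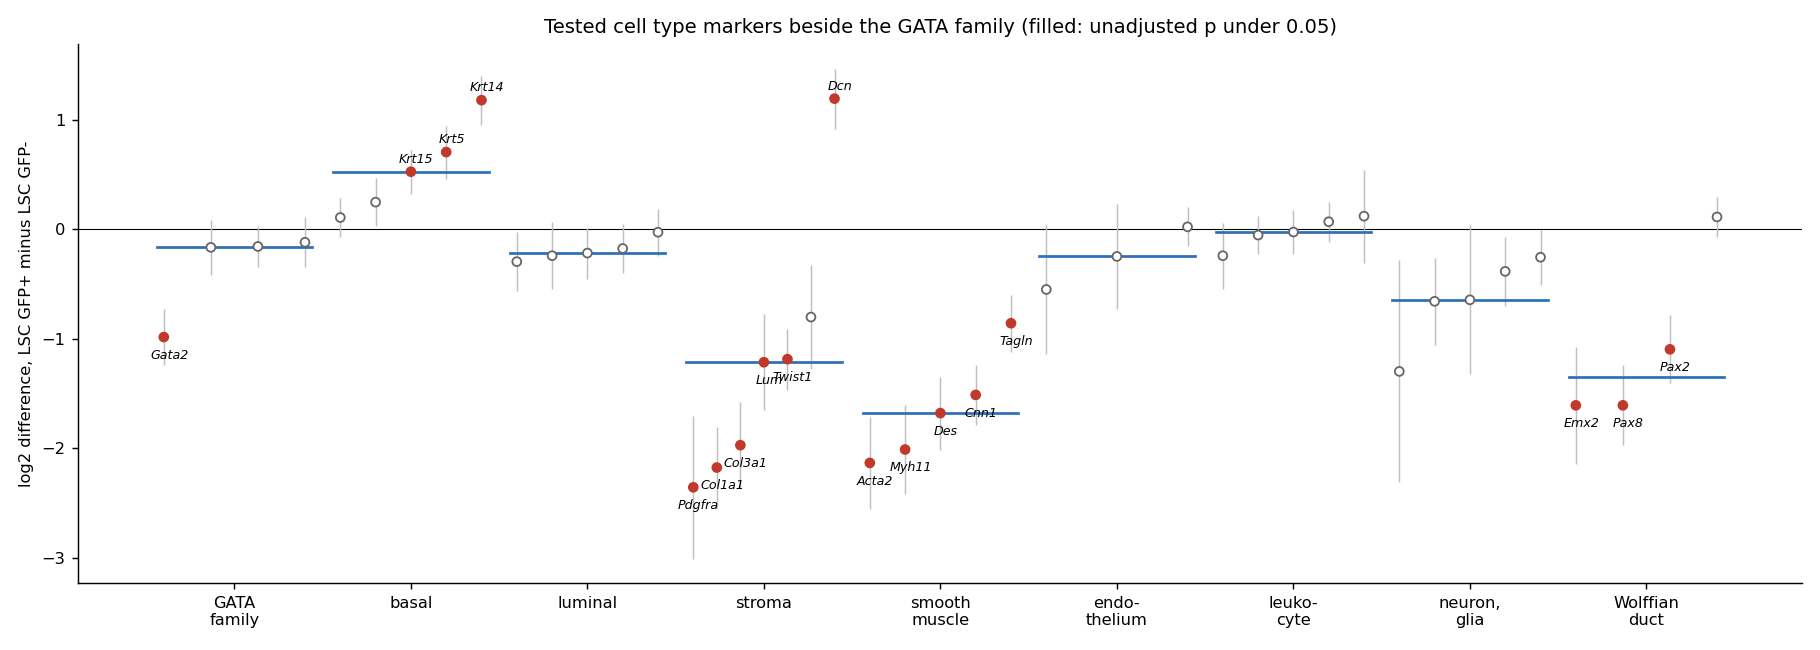
Difference between the populations (LSC GFP+ minus LSC GFP-, log2, bars are ± SE) of tested cell type markers beside the GATA family; filled points have an unadjusted p under 0.05 (limma) and blue lines are list medians. Smooth muscle markers and most stromal and Wolffian markers lie below 0 with Gata2, and the basal keratins lie above 0.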

How the data were processed

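Total RNA of 6 sorted samples was amplified with a whole-transcriptome kit, labelled with Cy3 and hybridised, 1 sample per array, to SurePrint G3 Mouse arrays on the same slide. The authors quantified the scans with Agilent Feature Extraction (10.7.3.1 per the labels, 11.0.1.1 per the file headers). The deposited intensity values are the processed signal on the linear scale, background-subtracted and not scaled between arrays. The table of the whole series, as deposited by the authors, holds close but not identical intensity values. Scaled alike, it gave a Gata2 difference of -0.986 against -0.985, and a Gata5 difference of -0.123 against -0.120.

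From the processed signal of each array, log2 signals minus the 75th percentile of that array were computed. Outlier spots (123 to 154 per array) were left out and spots of a probe averaged. Between 36663 and 42132 probes per array were well above background, and the number of arrays limits the precision. Populations were compared with limma 3.58.1 in R 4.3.3, two-sided, with Benjamini-Hochberg adjustment over 37008 probes, and the fit was tested on simulated data. A gene was given by its brightest tested probe. Symbols came from RefSeq for 26582 probes. Shared letters and promoter motifs were matched exactly.

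The family and the lists were chosen with earlier results of these data known, so their counts are descriptions. Some genes of the lists are not reported here and were left out of the counts. Text names every GATA gene, list members that passed an unadjusted p of 0.05 or describe their list, defining markers, and the 3 genes most correlated with each tested GATA gene. Labels do not tie samples of the populations together. Deviations of samples with the same number correlated (r = 0.43, 0.28 and 0.67), and those with unlike numbers had r from -0.55 to 0.22. A pairing by number is thus not established, and a fit with the number as a block is given as an alternative. Alternatives covered background correction, scaling, normalization, filters, the methods' t-test with equal variances, an intensity trend, probe averaging and leaving out samples.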

Additional observations from a re-analysis of the deposited data

How the results depend on the processing

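Gata2 stayed lower in LSC GFP+ with an unadjusted p under 0.05 in all 18 alternatives (log2 differences -1.14 to -0.77, p 0.00111 to 0.0216, adjusted p 0.0840 to 0.653). With the replicate number as a block in limma, the adjusted p of Gata2 was 0.0840. That fit called 5479 of 37008 probes at an unadjusted p of 0.05 against 2925, and 2 cofactors against 0. Among list genes and markers it added Gatad2a, Lmo2, Bmp4, Sox10 and Tubb3 and ended no call. The methods' t-test called 2798 probes at an unadjusted threshold of 0.05, Gata2 among them, and 0 after Benjamini-Hochberg adjustment. With samples left out one at a time, or those of number 1 together (the latter chosen after seeing the data), Gata2 ranged from -1.14 to -0.77. Gata3 (-0.21 to -0.09) and Gata5 (-0.27 to -0.04) kept their sign and were not called, and Gata6 (-0.35 to 0.057) turned to 0.057 without LSC GFP+ sample 2. Cofactor calls numbered 1 with normexp (Trps1) and with quantile normalization (Lyl1), 2 with the methods' t-test (Ldb1 and Trps1), and 0 to 1 with samples left out. Blood and mast cell calls numbered 0 with median scaling and with the methods' t-test, 2 (Hdc and Kit) with a filter of at least 1 array and with no filter, and 0 to 1 with samples left out. Epithelial Gata3-linked calls numbered 1, Muc1, with the methods' t-test and 2 to 3 with samples left out. Prostate and androgen-axis calls numbered 1 to 3, and heart, endoderm and gonad calls 3 to 4, with samples left out. The causes were not tested. Adjusted calls over all probes numbered 0 to 3. Probes near background, Gata1 and Gata4 among them, limit what these arrays show of weakly expressed members.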
